A study of Mus musculus with 4 samples.

Results

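Axon guidance cues and their receptors were examined across 4 sorted populations, from a mouse stem cell culture and from fetal ventral midbrain, 1 array each. The set held 46 genes, of which 45 could be read among 19938 genes with a probe cluster of their own: 16 midline cues and receptors, 17 semaphorin-plexin genes and 12 ephrin-Eph genes. Ephb2 had no such cluster, so its signal was not analysed here. A gene was read from clusters carrying its symbol alone, and the brightest cluster was used where it had several. The first pair of arrays came from mouse embryonic stem cells (ESCs) of a 129SVEV line in which GFP had been knocked into Lmx1a, a floor plate transcription factor gene. These cells were grown as aggregates by the SFEBq method with SHH and FGF8b added, and on day 9 GFP+ cells were sorted by CORIN, a surface protease of the floor plate, to give the CORIN+LMX1A::GFP+ population and, from cells without CORIN, the CORIN-LMX1A::GFP+ population. The second pair held CORIN+ and CORIN- cells of ventral mesencephalon (VM) from C57BL/6N fetuses at E11.5, with no selection on Lmx1a. Either fetal population could therefore include other cells that the dissection held.

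All values below are log2 signals of a probe cluster, or log2 differences between arrays of the same cluster, where a difference of 1 is a 2-fold difference. With 1 array per population no difference had a replicate, so no test was made and no gene is said to have changed. Array medians lay between 7.97 and 8.03, and 38 of the 45 genes were above the median in every array. The other 7, namely Unc5d, Robo3, Sema3a, Sema3d, Sema3e, Efna1 and Epha5, were below it in 1 to 3 arrays. Corin itself had a log2 signal of 13.10 in CORIN+ and 11.13 in CORIN- ESC-derived cells, and 11.43 and 7.28 in the corresponding fetal cells, in the order of the sort. The 8 measured floor plate markers were above the array median in both ESC-derived arrays, as were 13 of the 14 neuron markers, the exception being Nefm at 7.57 in CORIN+ cells. In the fetal CORIN+ array the summed linear signal of 10 macrophage markers was 15.6 times that of the CORIN- array, and that of 11 mesenchyme markers 4.80 times. For 6 pluripotent markers the summed signal of the ESC-derived CORIN- array was 5.56 times that of the CORIN+ array.

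Guidance molecules steer growth cones by attraction or repulsion. The floor plate at the ventral midline is a classical source of them: it releases netrins, which attract commissural axons through DCC and repel through UNC5 receptors, and slits, which repel axons that carry ROBO receptors. Semaphorins act through plexins, with neuropilins as ligand-binding partners for the secreted class, and ephrins are cell-bound ligands of Eph receptor tyrosine kinases. In the midbrain these families pattern the growth of dopaminergic and other axons that leave or cross the ventral midline.

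**Figure D1:**
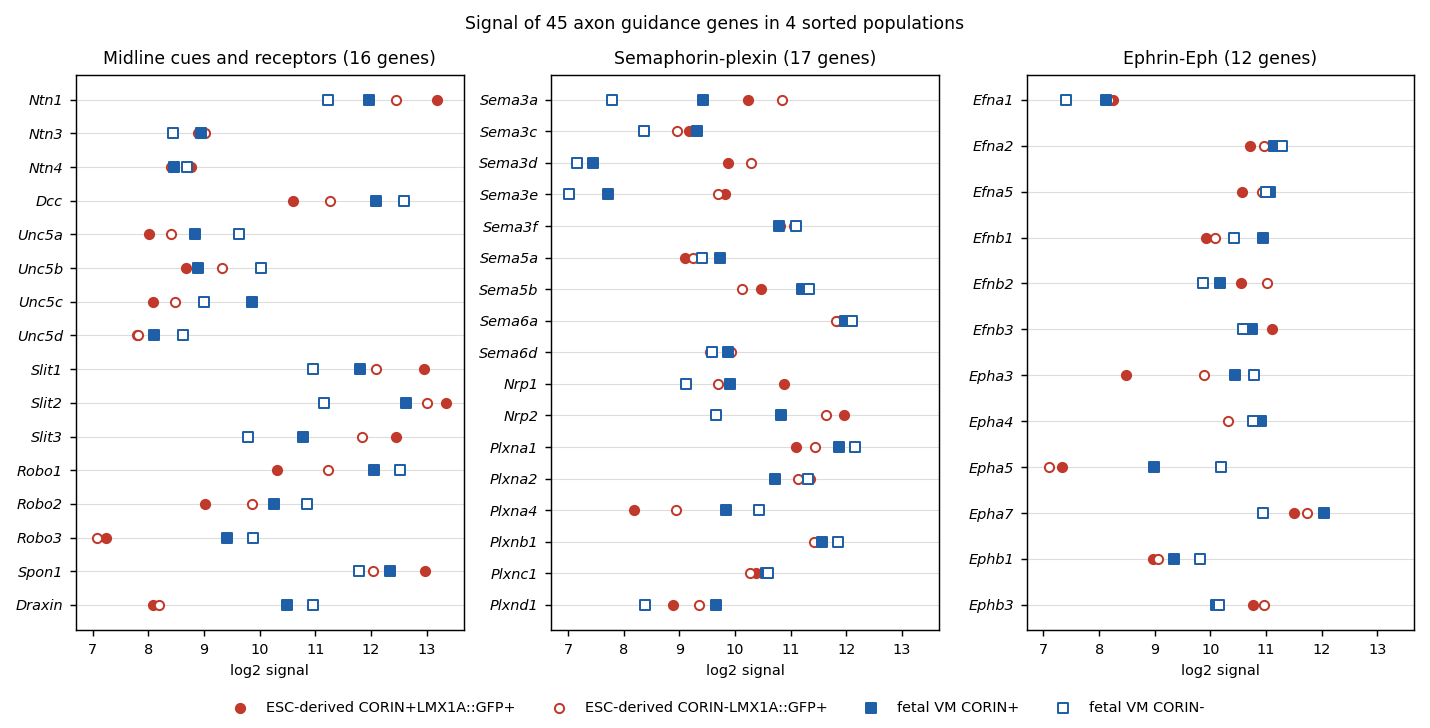
Log2 signal of each of the 45 measured genes in the 4 arrays, by family. Circles are ESC-derived and squares fetal VM cells, filled for CORIN+ and open for CORIN-, and each symbol is 1 array with no replicate. Netrin-1 and the 3 slit genes run from ESC-derived CORIN+ as the highest to fetal CORIN- as the lowest, and Dcc, Robo1 and Robo2 run the other way.

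The start regions of 3 genes are printed because Slit2 and Sema3a were the secreted ligands that differed at least 2-fold between fetal CORIN+ and CORIN- cells, and Epha5 was the sole gene among those past 2-fold whose window held any of the motifs searched. Each is the 250 bases before the annotated start in the RefSeq annotation of GRCm38.p6, written 5′ to 3′ along the gene's strand. For Slit2 (chr5:47982905-47983154, + strand) and Sema3a (chr5:13396534-13396783, + strand) capitals mark CG dinucleotides, and for Epha5 (chr5:84417383-84417632, - strand) they mark the homeodomain core TAATTA, which begins 230 bases before the start.
Slit2: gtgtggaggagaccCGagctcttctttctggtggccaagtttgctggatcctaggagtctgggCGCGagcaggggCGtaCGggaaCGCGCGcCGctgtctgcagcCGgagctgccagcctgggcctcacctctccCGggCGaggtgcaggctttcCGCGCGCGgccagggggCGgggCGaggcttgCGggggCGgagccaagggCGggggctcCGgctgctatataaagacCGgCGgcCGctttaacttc
Sema3a: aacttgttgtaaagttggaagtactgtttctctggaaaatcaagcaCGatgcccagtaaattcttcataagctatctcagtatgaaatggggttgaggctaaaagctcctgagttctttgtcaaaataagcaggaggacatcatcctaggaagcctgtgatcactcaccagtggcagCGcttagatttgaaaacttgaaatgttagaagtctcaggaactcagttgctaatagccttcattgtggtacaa
Epha5: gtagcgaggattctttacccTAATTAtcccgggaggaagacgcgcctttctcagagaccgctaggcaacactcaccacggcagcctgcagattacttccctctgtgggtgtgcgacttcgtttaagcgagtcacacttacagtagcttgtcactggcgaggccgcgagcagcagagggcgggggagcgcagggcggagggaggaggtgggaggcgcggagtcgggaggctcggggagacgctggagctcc
The Slit2 stretch held 25 CG dinucleotides with a GC content of 69.6%, whereas the Sema3a stretch held 2 with a GC content of 40.8%. RefSeq windows matched 36 of the 46 genes, Ephb2 among them, 41 windows in all. Ntn1, Slit1, Spon1, Dcc, Unc5d, Sema3f, Sema6a, Plxna1, Plxna4 and Efnb3 had no window, so they were not searched. In the 250 bases before the start the number of CG dinucleotides ran from 2 to 39 with a median of 18, against a median of 6 over all 32851 windows. In the windows of 300 bases, which add 50 after the start, and read on both strands, TAATTA was in 3 of the 41 windows (Efna1, Epha5 and Robo3) and in 5.29% of all windows. The E-box CAGCTG was in 3 (Draxin, Ephb3 and Robo2) and in 16.3% of all windows. The forkhead letters TGTTTAC were in 0 of 41, and in 3.65% of all windows. These are letter matches in a short window and say nothing of whether a factor binds.

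The first question was how guidance genes differed between CORIN+ and CORIN- cells among ESC-derived progenitors. Nrp1, a neuropilin, was the 1 gene at least 2-fold higher in CORIN+ cells, and Epha3, an Eph receptor, the 1 gene at least 2-fold lower, while 43 stayed under 2-fold. The share of all genes past the same limit was 0.376% upward and 0.522% downward. At 1.5-fold, 5 guidance genes were higher, beside 1.52% of all genes, and 7 were lower, beside 2.32%. The median difference over the 45 genes was -0.12. In the fetal VM, 5 genes were at least 2-fold higher in CORIN+ cells (Slit2, Sema3a, Nrp2, Plxnd1 and Epha7), beside 3.16% of all genes, and 2 were at least 2-fold lower (Unc5b and Epha5), beside 0.456%. At 1.5-fold these counts were 13, beside 5.92%, and 6, beside 2.8%, and the median difference was 0.07. The spread of differences over all probe clusters, as a scaled median absolute deviation, was 0.146 between the ESC-derived arrays and 0.162 between the fetal arrays. This spread is taken across clusters, including those without a single gene symbol, and is not a replicate error.

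Read in both pairs, which share no array, 4 genes were at least 1.5-fold higher in CORIN+ cells each time (Ntn1, Slit1, Slit3 and Nrp1), beside 0.366% of all genes. Another 3 (Unc5b, Robo2 and Plxna4) were at least 1.5-fold lower each time, beside 0.542%. At 2-fold, 0 genes were higher and 0 lower in both pairs, beside 0.0802% and 0.0301% of all genes. By sign alone, 12 of the 45 were higher in both pairs, beside 22.2% of all genes, and 14 lower in both, beside 31.3%, both close to the background share. The 4 higher genes are 3 midline ligands and a receptor subunit, and the 3 lower ones are all receptors.

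**Figure D2:**
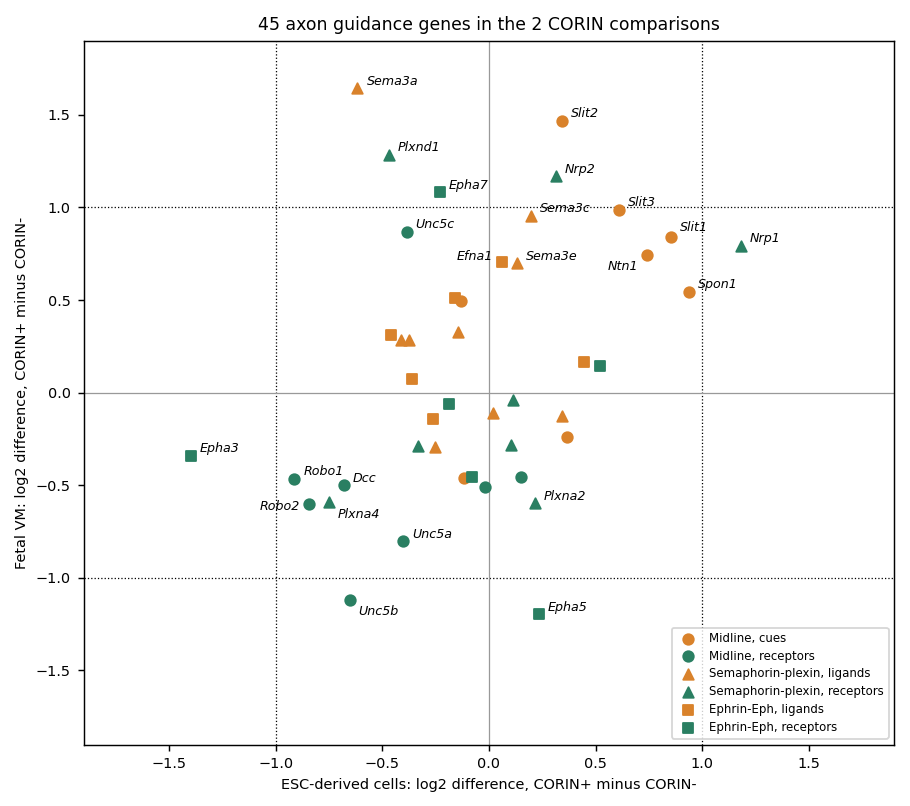
Log2 difference between CORIN+ and CORIN- cells in ESC-derived cells (x axis) against fetal VM (y axis) for 45 genes, with dotted lines at 2-fold. Orange symbols are ligands or cues and green symbols receptors, with the family given by shape. Netrin-1, the slits and Spon1 lie to the upper right, Dcc, Robo1, Robo2, Unc5a and Unc5b to the lower left, and Sema3a, Plxnd1, Epha7 and Epha5 off the diagonal.

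By median, midline cues stood higher and their receptors lower in CORIN+ cells of both origins, a split made after the data were seen. Of the 8 cues, 5 were higher in both pairs, beside 22.2% of all genes. Of the 8 receptors, 6 were lower in both, beside 31.3%. The 8 cues had a median difference of 0.49 in ESC-derived cells and 0.64 in the fetal VM, with 6 of 8 above 0 in each, beside 10075 and 8031 of 19938 genes overall. The 8 netrin and slit receptors had medians of -0.53 and -0.50, with 7 of 8 below 0 in each, beside 9846 and 11895 of 19938 genes. Both cell sources thus split the family by role, which the family median, -0.07 and -0.35, does not show.

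Among the cues, netrin-1 (Ntn1), the main chemoattractant of the floor plate, had a log2 signal of 13.19 in ESC-derived CORIN+ and 12.45 in CORIN- cells, and 11.97 and 11.23 in fetal CORIN+ and CORIN- cells. The CORIN+ array was the higher one by 0.74 (1.67-fold) in each pair, and each fetal array lay below both ESC-derived arrays. Slit1 gave 12.95 and 12.09 in ESC-derived CORIN+ and CORIN- cells, then 11.80 and 10.95 in fetal cells, differences of 0.85 and 0.84. Slit2 gave 13.35, 13.00, 12.62 and 11.15 in the same order, so that the difference was 0.34 in ESC-derived and 1.47 (2.77-fold) in fetal cells. Fetal CORIN- cells were thus the array that stood apart for Slit2. Slit3 gave 12.45, 11.85, 10.78 and 9.79, and its fetal difference of 0.99 (1.98-fold) lay just outside 2-fold. Spon1, which encodes the floor plate matrix protein F-spondin, gave 12.97, 12.03, 12.34 and 11.79, with differences of 0.94 (1.91-fold) and 0.55. These 5 secreted cues had the higher signal in CORIN+ cells in either source. Ntn3 differed by -0.13 and 0.50, Ntn4 by 0.36 and -0.24, and Draxin, a secreted DCC-binding repellent, by -0.12 and -0.46, so the remaining cues did not share the pattern.

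Of the receptors, Dcc had 10.59 in ESC-derived CORIN+ and 11.27 in CORIN- cells, and 12.09 and 12.59 in fetal ones, with differences of -0.68 and -0.50. Robo1 gave 10.31, 11.22, 12.05 and 12.51 in that order, with differences of -0.91 (1.88-fold) and -0.46. Robo2 gave 9.02, 9.87, 10.26 and 10.86, with differences of -0.84 and -0.60. All 3 ranked the arrays alike, from ESC-derived CORIN+ as the lowest to fetal CORIN- cells as the highest, the reverse of netrin-1 and the slits. Among the repulsive netrin receptors, Unc5a gave 8.01, 8.41, 8.83 and 9.63 (differences -0.40 and -0.80). Unc5b gave 8.68, 9.33, 8.89 and 10.02 (differences -0.65 and -1.12), the only midline gene at least 2-fold lower in a pair. Unc5c was the exception by sign in the fetal cells: it gave 8.09 and 8.48 in ESC-derived CORIN+ and CORIN- cells but 9.86 and 8.99 in fetal ones, differences of -0.39 and 0.87 (1.83-fold). Unc5d differed by -0.02 and -0.51. Robo3, a divergent ROBO that keeps commissural axons from being repelled before they cross, differed by 0.15 and -0.46, the other receptor with opposite signs.

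The order of the 4 arrays sums up this contrast. Both orders counted here were chosen after the data were seen, from netrin-1, the slits, Dcc and the ROBO genes described above. Those genes are among the ones counted, so the counts are a description and not a test. From highest to lowest, signal ran from ESC-derived CORIN+ through ESC-derived CORIN- and fetal CORIN+ to fetal CORIN- cells for Ntn1, Slit1, Slit2 and Slit3, which makes 4 of 8 midline cues and 0 of 8 midline receptors, beside 2283 of 19938 genes overall. The exact reverse was seen for 5 of 8 midline receptors (Dcc, Robo1, Robo2, Unc5a and Unc5d) and for Draxin, beside 2502 of 19938 genes. Among all 45 genes the first order held for 7, of which 6 are ligands, and the reverse for 11, of which 9 are receptors. Unc5d had it as deposited but not after quantile normalization or centring of the arrays, and the other 17 kept their order. Together these are 18 of 45 genes, beside 24% of all genes. Cell type markers had these orders too. Of the 8 floor plate markers, 5 had the order of the slits, and 14 of 14 neuron markers had the order of Dcc and the ROBO genes.

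Neuron markers moved with the receptors in size as well. All 14 were lower in CORIN+ cells in both pairs, with medians of -0.63 and -0.54, and their summed linear signal was 16112, 23728, 46990 and 68470 in ESC-derived CORIN+, ESC-derived CORIN-, fetal CORIN+ and fetal CORIN- cells. Floor plate markers had medians of 0.22 and 0.41, with summed signals of 39329, 26662, 15997 and 8382. This list and its sums include Corin, whose direction within each pair was set by the sort. In sorted populations fewer cells of a type and less RNA per cell cannot be told apart, and the part of neuron or floor plate content in the receptor and cue differences was not tested. Radial glia and progenitor markers had medians of 0.18 and 0.09 but were not uniform. In ESC-derived cells 3 of 10 were at least 1.5-fold higher in CORIN+ cells, and in fetal cells Slc1a3 was 1.16 higher and Pax6 differed by -1.23. The 6 pluripotent markers had medians of -2.10 and -0.08, and their part in the ESC-derived differences was not tested.

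**Figure D3:**
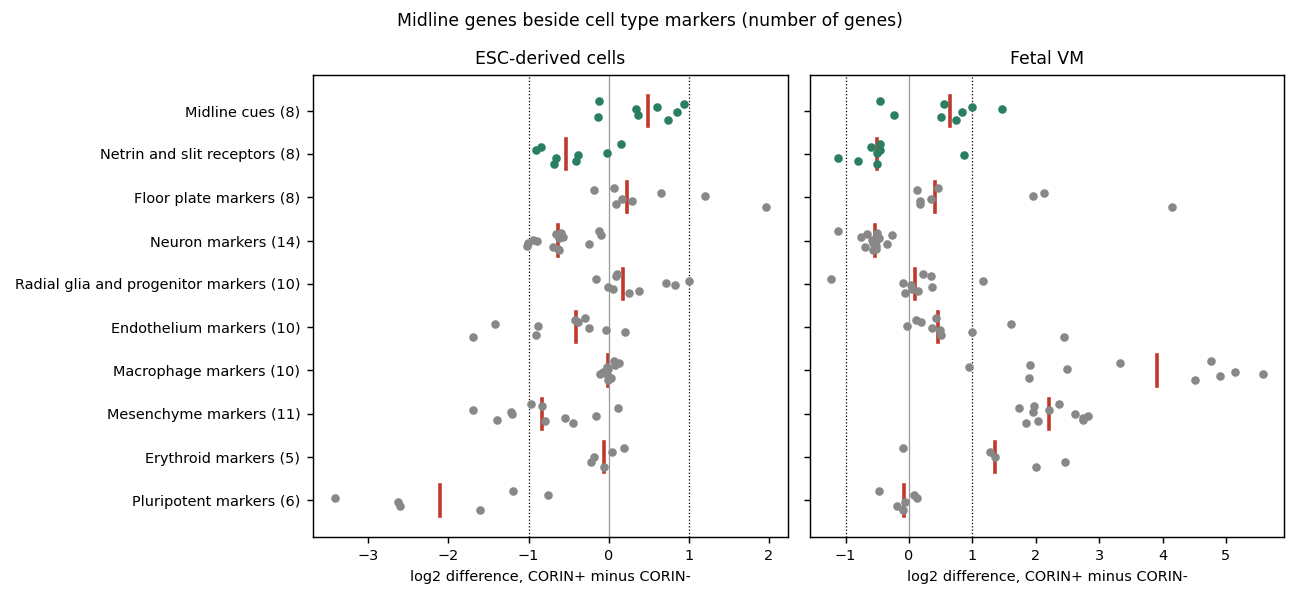
Log2 difference between CORIN+ and CORIN- cells for midline genes (green) and for marker lists of cell types (grey), in ESC-derived cells (left) and fetal VM (right). Each point is a gene, red bars are medians and dotted lines mark 2-fold. In each panel 7 of the 8 netrin and slit receptors lie below 0 with the neuron markers, whereas the medians of macrophage, mesenchyme and erythroid markers are above 1 in the fetal panel alone.

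Semaphorin-plexin genes shared no direction. The median of the 17 genes was 0.02 in ESC-derived and 0.28 in fetal cells, and the latter became -0.042 when the 15 genes above the 50th percentile were taken, so none is given for the family. Both neuropilins were higher in CORIN+ cells of both sources. Nrp1, which binds SEMA3A and VEGF, had 10.88 in ESC-derived CORIN+ and 9.70 in CORIN- cells, and 9.91 and 9.12 in fetal ones, differences of 1.18 (2.27-fold) and 0.79 (1.73-fold). Nrp2, which prefers SEMA3C and SEMA3F, gave 11.96, 11.64, 10.82 and 9.65 in the same order, differences of 0.31 and 1.17 (2.25-fold). The neuropilins thus had the order of signs of the slit ligands rather than that of the slit receptors. Endothelial cells also express neuropilins, and the 10 endothelium markers had a median of -0.41 in ESC-derived and 0.46 in fetal cells, with summed linear signals of 1503, 2145, 4042 and 1756. Their part in the neuropilin differences was not tested.

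Among secreted semaphorins, the CORIN+ minus CORIN- difference of Sema3a and Sema3d had opposite signs in the sources. That of Sema3c, Sema3e and Sema3f had the same sign. Sema3a, a repellent that acts through NRP1, had 10.23 in ESC-derived CORIN+ and 10.85 in CORIN- cells, a difference of -0.62, while the fetal arrays gave 9.43 with and 7.79 without CORIN, 1.64 apart (3.12-fold). The fetal CORIN- array alone was below the array median for this gene. Sema3c gave 9.16, 8.96, 9.32 and 8.36, with a fetal difference of 0.95 (1.94-fold) against 0.20. Sema3e, the ligand of PLXND1, gave 9.82, 9.69, 7.71 and 7.01, with differences of 0.13 and 0.70 (1.62-fold). Fetal CORIN- cells were the lowest array for each of these 3 genes. Sema3d differed by -0.41 and 0.29 and Sema3f by -0.25 and -0.30. The 4 membrane semaphorins measured (Sema5a, Sema5b, Sema6a and Sema6d) stayed under 1.5-fold in both pairs.

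Plexins did not move as a block. Plxnd1 had 8.88 in ESC-derived CORIN+ and 9.35 in CORIN- cells, and 9.66 and 8.38 in fetal ones, so the sign turned from -0.47 to 1.28 (2.43-fold). Plxna4, a signalling partner of neuropilins in neurons, gave 8.18, 8.93, 9.84 and 10.42, with differences of -0.75 (1.68-fold) and -0.59. Plxna2 gave 11.34, 11.13, 10.71 and 11.31, with differences of 0.22 and -0.60 (1.51-fold). Plxna4 thus ranked the arrays as the ROBO genes and the neuron markers did, and Plxna2 differed past 1.5-fold in the fetal pair only, where fetal CORIN+ cells were lowest. Plxna1, Plxnb1 and Plxnc1 stayed under 1.5-fold in both pairs.

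The fetal differences of Sema3a, Sema3c, Sema3e, Plxnd1 and Unc5c stood in the pair where markers of other cell types were also higher in CORIN+ cells. Those of Ntn1, Slit1, Slit2, Slit3, Nrp1, Nrp2, Epha7 and Efna1 stood in the same pair. There, 11 of 11 mesenchyme markers were at least 2-fold higher (median 2.20) and the 10 macrophage markers had a median of 3.92. In the ESC-derived pair the mesenchyme median was -0.84 and the macrophage median -0.01, and 10 of 10 macrophage markers were below the array median in both ESC-derived arrays. The 5 erythroid markers had medians of -0.06 and 1.36. Semaphorins, plexins and UNC5 receptors are also made outside the nervous system, and the part of those cells in any of these fetal differences was not tested.

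Ephrin-Eph genes had a median of -0.17 in ESC-derived and 0.11 in fetal cells, with 1 gene past 2-fold in the former and 2 in the latter. Epha3 had 8.48 in ESC-derived CORIN+ and 9.88 in CORIN- cells, which put it at -1.40 (2.63-fold), the lowest value of any guidance gene there, and 10.45 and 10.79 in fetal cells, at -0.34. The ESC-derived CORIN+ array stood apart as the low one. Epha5 gave 7.33, 7.09, 8.99 and 10.19, a difference of 0.23 in ESC-derived cells, where both arrays were below the array median, and of -1.20 (2.29-fold) in fetal cells. Epha7 gave 11.51, 11.74, 12.03 and 10.95, with differences of -0.23 and 1.08 (2.12-fold), just inside 2-fold. Each of these 3 EphA receptors passed 2-fold in a single source, and whether the sources differed was not tested, while in Epha5 and Epha7 the fetal signs were opposite. Epha4 gave 10.84, 10.32, 10.91 and 10.77, with differences of 0.52 and 0.14.

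Among the ligands, Efna1 had 8.24 and 8.18 in ESC-derived CORIN+ and CORIN- cells and 8.12 and 7.41 in fetal ones, with a difference of 0.71 (1.63-fold) in the latter against 0.06. Efna2, Efna5, Efnb1, Efnb2 and Efnb3 stayed under 1.5-fold in both pairs, as did the EphB receptors Ephb1 and Ephb3. Efnb1 differed by -0.16 and 0.51 and Efnb2 by -0.46 and 0.31. The EphA receptors therefore carried most of the larger differences in this family, with ephrin ligands nearer to 0.

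Outside the 46 genes, 31 of 33 further members of these families were measured. In both pairs 0 reached 2-fold upward and 1 reached it downward, Dscam, a netrin-binding adhesion receptor of neurons. Dscam gave 8.43, 9.52, 9.76 and 11.05 in ESC-derived CORIN+, ESC-derived CORIN-, fetal CORIN+ and fetal CORIN- cells, differences of -1.09 and -1.29. It ranked the arrays as Dcc and the neuron markers did, an order that 13 of the 31 further genes had. Of these 31, 17 were lower in both pairs, beside 31.3% of all genes, and 5 higher, beside 22.2%, and their medians were -0.12 and -0.14. Intracellular effectors of guidance signalling (30 of 34 measured) had medians of -0.12 and -0.22, with 0 of 30 past 2-fold in ESC-derived cells. In fetal cells Dock1, a Rac activator in netrin signalling, was 1.04 higher and Chn2, a Rac-inactivating chimaerin, 1.01 higher. The Dcc order also held for 15 of the 30 effectors, among them Crmp1 and Dpysl2 to Dpysl5, collapsin response mediators of semaphorin signalling, which were picked out after their values were seen.

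**Figure D4:**
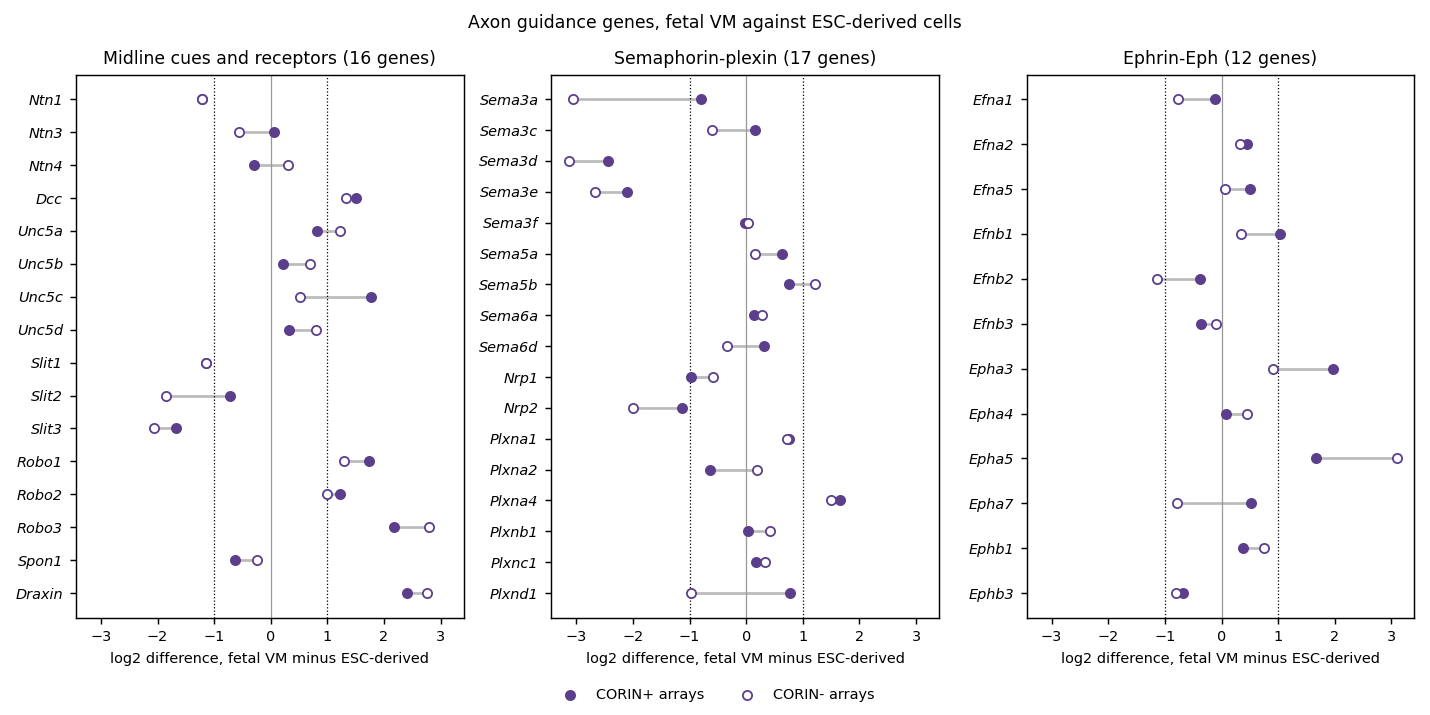
Log2 difference between fetal VM and ESC-derived cells for CORIN+ arrays (filled) and CORIN- arrays (open), 45 genes by family, with dotted lines at 2-fold and a bar joining each gene's values. Robo3, Draxin and Epha5 lie far to the right and Sema3d and Sema3e far to the left in both comparisons, and the bar of Sema3a is long because the CORIN- value lies apart.

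The second question was how the level of guidance genes in cells cultured to day 9 compared with cells taken from the E11.5 midbrain. Here strain, stage, culture and the LMX1A::GFP selection differed together and cannot be told apart. Between CORIN+ cells 10 genes were at least 2-fold higher in the fetal array, beside 4.37% of all genes, and 6 lower, beside 2.98%. Between CORIN- cells 8 were higher, beside 3.52%, and 9 lower, beside 4.54%. In both comparisons 6 genes were higher (Dcc, Robo1, Robo3, Draxin, Plxna4 and Epha5), beside 2.09% of all genes, and 6 lower (Ntn1, Slit1, Slit3, Sema3d, Sema3e and Nrp2), beside 1.91%. At 1.5-fold the counts were 15 higher, beside 8.08%, and 12 lower, beside 7.88%, between CORIN+ cells, and 14 higher, beside 7.18%, and 14 lower, beside 10.4%, between CORIN- cells. In both comparisons 11 genes were higher at that limit, beside 4.33%, and 9 lower, beside 5.27%. By sign, 23 of 45 were higher in both, beside 35.2% of all genes, and 14 lower in both, beside 36.8%.

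Roles split again. All 8 netrin and slit receptors were higher in fetal cells in both comparisons, with medians of 1.37 for CORIN+ and 1.11 for CORIN- cells, and the midline cues had medians of -0.68 and -0.85. Robo3 had 7.24 and 7.08 in ESC-derived CORIN+ and CORIN- cells, below the array median, and 9.42 and 9.87 in fetal ones, 4.54-fold and 6.92-fold higher. Draxin gave 8.08, 8.20, 10.49 and 10.95, 5.31-fold and 6.74-fold higher in the fetal arrays. Both genes were well apart between sources and close within them. Dcc was 2.84-fold and 2.50-fold higher, Robo1 3.34-fold and 2.45-fold, and Plxna4 3.15-fold and 2.81-fold. Epha5 was 3.17-fold higher between CORIN+ and 8.54-fold higher between CORIN- cells. Neuron markers were also higher in fetal cells, with medians of 1.49 and 1.53, and their part in these differences was not tested.

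Of the 6 genes at least 2-fold lower in fetal cells in both comparisons, 5 are secreted ligands and the other is Nrp2. Sema3d had 9.87 and 10.28 in ESC-derived CORIN+ and CORIN- cells and 7.44 and 7.15 in fetal ones, both below the array median, differences of -2.43 and -3.13 (8.76-fold). Sema3e was 4.32-fold and 6.40-fold lower in fetal cells. Sema3a was 8.35-fold lower between CORIN- cells but 1.74-fold lower between CORIN+ cells. The low fetal signal of these 3 class 3 semaphorins was thus largest in CORIN- cells. Slit3 was 3.19-fold and 4.15-fold lower, Ntn1 2.33-fold lower in both comparisons, Slit1 2.22-fold and 2.20-fold lower, and Nrp2 2.20-fold and 3.98-fold lower. Slit2 followed with 1.66-fold between CORIN+ and 3.61-fold between CORIN- cells. The summed floor plate signal was likewise lower in the fetal arrays, and its part in the lower cues was not tested.

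Further genes passed 2-fold in a single comparison. Unc5c was 3.42-fold, Robo2 2.35-fold, Epha3 3.91-fold and Efnb1 2.04-fold higher in fetal cells between CORIN+ arrays, and the corresponding values between CORIN- arrays were 1.43, 1.99, 1.88 and 1.28. Unc5a was 2.33-fold and Sema5b 2.32-fold higher between CORIN- arrays, where Efnb2 was 2.22-fold lower. Robo2 lay just outside 2-fold between CORIN- arrays and was therefore close to the genes higher in both.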

How the data were processed

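Total RNA of sorted cells was labelled by a whole-transcript method and hybridised to Affymetrix mouse arrays, 1 for each of 4 populations. The deposited values are log2 signals, 1 per probe cluster, computed by the authors, whose methods name GeneSpring. Summarization, background correction, normalization between arrays, any filter and the build were not given in the sources used here. These steps set how far levels can be compared between arrays.

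Of 28856 clusters, 21789 carried 1 gene symbol, 1621 several and 5446 none, and the latter kinds were left out. For 21698 clusters the symbol was taken through the gene identifier from the GRCm38.p6 annotation, whether or not it differed from the first one. The brightest cluster of a gene by mean signal was taken, which left 19938 genes. Of the 46 genes 43 had 1 cluster and 2 (Unc5d and Ephb1) had several. Differences were taken as deposited with Python 3.11.15, numpy 2.4.6, pandas 2.3.3 and matplotlib 3.10.9, and the code was tested on simulated data. Groups came from the sample labels. Shares over all genes stand beside the first count of each kind in a comparison. The number of arrays limits the precision, and no interval can be given.

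Genes described in full were those at least 1.5-fold apart in a CORIN comparison or at least 2-fold apart in both comparisons of fetal with ESC-derived cells, with their partners. Family genes and effectors outside the set were named where they passed 2-fold in a CORIN comparison. The 46 genes and all lists were chosen with earlier results of these data known. Alternatives were quantile normalization, centring on the median, filters at the 20th and 50th percentiles, 32 added to the linear signal, the mean over a gene's clusters, and thresholds of 1.5 and 3.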

Additional observations from a re-analysis of the deposited data

Results flagged for a closer look

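For 6 genes the CORIN+ minus CORIN- difference had opposite signs in ESC-derived and fetal cells and differed widely. The fetal log2 difference minus the ESC-derived one was 2.26 for Sema3a, 1.75 for Plxnd1, 1.31 for Epha7, 1.26 for Unc5c, -0.81 for Plxna2 and -1.43 for Epha5. With 1 array per population the difference between the sources was not tested for any of them.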

How the results depend on the processing

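No paired analysis was possible because each population had 1 array and the labels carry no replicate numbers. Of 620 values of single genes under the alternatives, 618 moved by less than the spread over all clusters. With 32 added to the linear signal, the fetal minus ESC-derived difference between CORIN- cells became -2.41 for Sema3e and 2.83 for Epha5. Slit3 in the fetal pair passed 2-fold at 1.02 after centring, and Robo2 between CORIN- arrays at 1.02 after quantile normalization. The semaphorin-plexin median of the fetal pair turned to -0.042 among genes above the 50th percentile, from 0.28, and 215 other values of family and role medians moved by less than that spread. Medians by role and the array orders were added after the data were seen. Midline cues gave 0.47 to 0.50 and 0.64 to 0.68 in the ESC-derived and fetal pairs, and midline receptors -0.67 to -0.49 and -0.52 to -0.47. Counts followed the threshold: at 1.5-fold and 3-fold, in place of 2-fold, 5 and 0 genes were higher and 7 and 0 lower in ESC-derived CORIN+ cells, 13 and 1 higher and 6 and 0 lower in fetal CORIN+ cells, 12 and 3 lower in fetal than in ESC-derived CORIN+ cells, and 14 and 3 higher in fetal than in ESC-derived CORIN- cells. At 1.5-fold 14 were lower in fetal than in ESC-derived CORIN- cells.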
